A study of Mus musculus with 3 samples.

Results

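Sebaceous gland cells of mouse back skin were described from single-cell RNA libraries of 3 groups, with 1 library each. They were chosen as cell barcodes with at least 500 genes and under 15% mitochondrial counts in which Scd1 took at least 0.3% and Mgst1 at least 0.1% of the unique molecular identifiers (UMIs, counted transcript molecules), with no UMI of Ptprc or Col1a1. The rule found 74 such cells among 24884 barcodes that passed the gene and mitochondrial limits: 1 in the 2-week knockout, 43 in the 3-week knockout and 30 in the control. Other epithelial barcodes, which met the same limits, held no Ptprc or Col1a1 UMI and gave at least 0.3% of their UMIs to keratin genes, numbered 8306, 6858 and 2893 in the same order and served as the comparison.

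The sebaceous gland opens into the hair canal and makes sebum, a mix of triglycerides, wax esters, sterol esters and free sterols. Its cells arise from keratin-positive progenitors at the gland's rim, fill with lipid droplets as they move inward, and finally burst to release their content, a mode of secretion called holocrine. Pparg is the nuclear receptor that directs this maturation, Scd1 places the double bond in fatty acids, and Mgst1 is a microsomal glutathione transferase long used as a gland marker. Piezo1, the gene deleted in the knockouts, encodes a cation channel opened by mechanical force.

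The 2-week knockout had the genotype K5-Cre-er/Piezo1 fl/fl/Td fl/+ and was taken at postnatal day 62. The 3-week knockout was K5-Cre-er/Piezo1 fl/fl/Td fl/fl and was taken at day 71. The control was K5-Cre-er/Piezo1 fl/+/Td fl/+, so it carried the same driver and 1 floxed Piezo1 allele, and was taken at day 62. All 3 came from C57BL/6 mice that received tamoxifen from day 48 to day 52. Cre recombinase in these mice sits behind the K5 (keratin 5) promoter, active in basal epithelium, so the gland is reached through its progenitors. The labels name no number of animals, and no control of day 71 was analysed here. Age and the second Td allele therefore cannot be told apart from the longer knockout, and no difference between groups has a replicate check: intervals are 95% intervals that cover counting error only.

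The libraries held 97960352 UMIs in the 2-week knockout, 118610125 in the 3-week knockout and 62967542 in the control, and their passed barcodes had median depths of 7594, 8952 and 10116.5 UMIs. Piezo1 read 27.6, 15.3 and 34.8 UMIs per 1000000 counted (CPM) in other epithelial barcodes of these libraries, counted from 3' tags that need not lie in the deleted part. Barcode sequences common to a pair of libraries numbered 29 for the 2-week and 3-week knockouts, 17 for the 2-week knockout and control, and 20 for the 3-week knockout and control; in that last pair, 1 of the 20 was a gland cell.

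The cells chosen by Scd1 and Mgst1 also carried the gland markers that the rule did not use. Fasn, fatty acid synthase, had a UMI in the 1 cell of the 2-week knockout, in 41 of 43 cells of the 3-week knockout and in 26 of 30 control cells. Pparg had a UMI in 1, 35 and 19 cells. Only 1 cell of the 3-week knockout and 4 control cells had neither. Summed over cells, Fasn stood at 774, 771 and 620 CPM in gland cells, against 22.3, 26.7 and 22.7 CPM in other epithelial barcodes, and Pparg at 80.9, 104 and 75.6 CPM, against 0.282, 1.35 and 2.10 CPM. Both genes were thus above other epithelium in each library, though in the 2-week knockout this rests on 1 cell that also carried epidermal transcripts.

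Markers of other lipid-rich or neighbouring cells were scarce. Of 8 adipocyte markers, 5 had no UMI in any gland cell, and the summed list reached 11.6, 10.2 and 17.1 CPM in the 2-week knockout, 3-week knockout and control. Fibroblast, endothelial, pericyte and Schwann cell lists each summed to at most 46.2 CPM in every library. Single control cells reached 1132 CPM over the fibroblast list and 744 CPM over the pericyte list. These are the values of 1 UMI in shallow cells of 883 and 1344 UMIs. The rule itself excluded Col1a1 of the fibroblast list and Ptprc of the immune list, so the absence of these genes was set in advance. In the control, 1 cell carried 1558 CPM over the immune list and melanocyte genes reached 1789 CPM in 1 cell, while the summed lists were 92.6 and 41.4 CPM. Scrublet, a doublet caller, marked 284, 394 and 110 passed barcodes and none of the 74 gland cells.

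Gland cells were far deeper than the epithelium around them. Their median was 33813 UMIs and 5105 genes in the 3-week knockout and 26526.5 UMIs and 4523 genes in the control, and the 1 cell of the 2-week knockout had 86565 UMIs and 6521 genes. Other epithelial barcodes had medians of 8050.5, 10961 and 12183 UMIs in the 2-week knockout, 3-week knockout and control. Depth varied widely among gland cells, with a range of 1458 to 97156 UMIs in the 3-week knockout and of 883 to 79499 UMIs in the control. Their mitochondrial share was also higher, with medians of 6.17%, 8.68% and 8.51%, against 2.73%, 3.44% and 3.43% in other epithelial barcodes.

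Gland cells were nearly missing from the 2-week knockout. They made up 0.0101% of passed barcodes there (exact Clopper-Pearson interval 0.000257 to 0.0564%, 1 of 9869), 0.430% in the 3-week knockout (0.312 to 0.579%, 43 of 9993) and 0.597% in the control (0.403 to 0.852%, 30 of 5022). The share in the 2-week knockout was 0.0170 times that of the control, with an interval of 0.000416 to 0.102. The share in the 3-week knockout was 0.720 times that of the control, and its interval of 0.442 to 1.19 includes equality, so a difference was not detectable at this number of cells. Barcodes that met the Scd1 and Mgst1 limits but held a Ptprc or Col1a1 UMI were left out. They numbered 0 in the 2-week knockout, 2 in the 3-week knockout and 6 in the control. Since the libraries differ in how much epithelium they hold, the shares were also set against epithelial barcodes: 0.0120% of 8307 in the 2-week knockout, 0.623% of 6901 in the 3-week knockout and 1.03% of 2923 in the control.

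Definitions that lean less on Scd1 found more cells in the 2-week knockout, and the order of the libraries was the same. Epithelial barcodes with at least 2 UMIs of Pparg numbered 7, 58 and 36 in the 2-week knockout, 3-week knockout and control, or 0.0843%, 0.840% and 1.23% of epithelial barcodes. The ratio to the control was then 0.0684 (0.0257 to 0.156) in the 2-week knockout and 0.682 (0.443 to 1.06) in the 3-week knockout. With the Mgst1 limit alone there were 14, 77 and 56 cells, or 0.142%, 0.771% and 1.12% of passed barcodes, with ratios of 0.127 (0.0654 to 0.232) and 0.691 (0.483 to 0.993). Among the definitions tried, that last one alone gave an interval for the 3-week knockout that lay below 1. Fewer gland cells in the skin and fewer freed by the digestion cannot be told apart here.

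**Figure D1:**
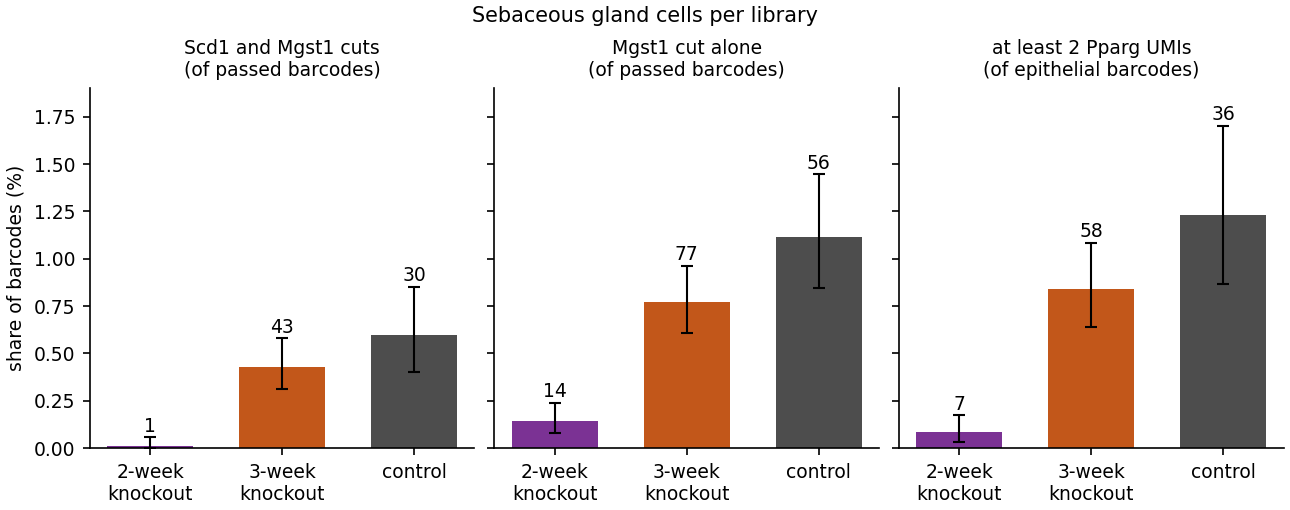
Share of barcodes, in percent, that met 3 definitions of a sebaceous gland cell in each library, with the number of cells above each bar and exact 95% intervals for counting error. The 2-week knockout was lowest under each definition, with 1, 14 and 7 cells.

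The near misses show what lies just outside the Scd1 limit. The lowest Scd1 shares inside it were 0.317% in the 3-week knockout and 0.302% in the control, and the highest outside it were 0.269% in the 2-week knockout, 0.295% in the 3-week knockout and 0.212% in the control. Cells that met every limit but that of Scd1 numbered 13 in the 2-week knockout, 34 in the 3-week knockout and 26 in the control. They carried gland transcripts at lower levels: Soat1, which esterifies cholesterol, read 1026, 565 and 213 CPM in them, and Elovl6, which extends palmitate, read 576, 755 and 147 CPM. Pparg in these cells read 86.4, 133 and 84.2 CPM, close to the gland cells' own values. Akr1c18, a steroid-reducing enzyme of the mouse, read 1619, 3592 and 2538 CPM in them, against 196, 950 and 569 CPM in the gland cells, and Apoe, a lipid carrier, read 13737, 14502 and 13654 CPM, against 6076, 9203 and 10210 CPM.

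The genes that set gland cells furthest apart from other epithelium were those of sebum synthesis. Since the rule chose cells by Scd1 and Mgst1, these contrasts are given as descriptions. Fa2h, which adds the hydroxyl group of hydroxylated fatty acids, read 3223, 2808 and 1957 CPM in gland cells of the 2-week knockout, 3-week knockout and control, against 0.340, 1.904 and 1.43 CPM in other epithelial barcodes. Its ratio was at least 305 in each library. Soat1 read 3639, 3344 and 3194 CPM, against 2.82, 4.997 and 5.83 CPM, and had at least 1 UMI in every gland cell.

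Cholesterol synthesis genes were higher as a list. Of 19 cholesterol synthesis genes, 17 were at least 2-fold higher in gland cells in each library. Sc5d, the sterol C5 desaturase, was lower by that much, at 0, 4.77 and 0 CPM in gland cells of the 2-week knockout, 3-week knockout and control, against 33.3, 36.6 and 28.8 CPM in other epithelial barcodes. Msmo1, the sterol C4 oxidase, read 3489 CPM in the 1 gland cell of the 2-week knockout, 1773 CPM in gland cells of the 3-week knockout and 652 CPM in those of the control, against 51.1, 62.5 and 69.3 CPM in other epithelial barcodes. Across the 1898 genes with at least 100 CPM in gland cells or in other epithelium, both pooled over libraries, 24.6% passed 2-fold higher in each library and 22.7% passed 2-fold lower, and the median log2 ratio was -0.61. The list counts here and below took every list gene without that floor unless a floor is named, so they are not on the same footing as these shares. Each count also rests on 1 cell in the 2-week knockout.

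Along the route from acetyl units to stored and secreted lipid, most abundant genes were higher, and a few scarce ones were lower. Of 16 fatty acid synthesis genes 11 were at least 2-fold higher in each library and 1, Scd2, was lower, and of 11 elongation and desaturation genes 6 were higher and 1, Elovl1, was lower. A floor of 100 CPM kept 10 and 5 genes of these lists, all of them higher, but most passed it through the gland cells alone, so these counts support nothing. Elovl1, an elongase of the skin barrier, read 0, 14.3 and 2.44 CPM in gland cells, against 69.8, 96.0 and 70.1 CPM in other epithelium. Elovl3, an elongase of saturated fatty acids, read 1432, 921 and 753 CPM in gland cells, against 0.258, 1.03 and 0.885 CPM in other epithelium. Of 19 triglyceride, wax and sterol ester genes, 12 were at least 2-fold higher and none lower. Far2, which makes fatty alcohols for wax, read 970, 1038 and 765 CPM, against 0.727, 1.45 and 1.17 CPM. Of 17 droplet and fatty acid transport genes 7 were higher and 2, Dbi and Fabp4, lower. Cidea, which fuses lipid droplets, read 2634, 1363 and 1132 CPM, against 1.01, 1.84 and 2.34 CPM. Of 14 peroxisome and ether lipid genes 9 were at least 2-fold higher and 1, Agps, lower, and of 14 oxidative phosphorylation genes 12 were higher and none lower.

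Cers4, Paqr7 and Mgll were leading genes outside these lists. Cers4, a ceramide synthase, read 3893, 2564 and 2373 CPM in gland cells, against 14.1, 9.98 and 12.6 CPM. Paqr7, a membrane progestin receptor, read 1606, 1485 and 747 CPM, against 4.96, 6.14 and 3.49 CPM. Mgll, the lipase that splits monoglycerides, read 5245, 3147 and 2868 CPM, against 33.1, 48.7 and 42.0 CPM. Fabp5, a fatty acid binding protein of the droplet and transport list, was the most abundant transcript of a nuclear gene with a known protein, at 28094, 15698 and 11635 CPM. Mc5r, a melanocortin receptor known for this gland, was at 104, 157 and 132 CPM against 0.399, 0.881 and 0.717 CPM.

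Genes of the surrounding epithelium went the other way. Of 14 immediate early genes, which respond within minutes to stimuli and to tissue digestion, 13 were at least 2-fold lower in gland cells in each library and none was higher. Their summed level was 3743, 6106 and 4576 CPM in gland cells of the 2-week knockout, 3-week knockout and control, against 33194, 27195 and 21419 CPM in other epithelial barcodes. Of 10 progenitor and basal genes, 8 were lower and none higher, and of 11 duct and upper follicle genes 8 were lower and 1, Krt79, was higher. Defb6, a beta-defensin of the upper follicle, read 0, 19.1 and 3.66 CPM in gland cells, against 752, 1040 and 747 CPM. Epgn, an epidermal growth factor family ligand, read 0, 17.0 and 1.22 CPM, against 347, 660 and 751 CPM.

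Gland cells were not uniform. When they were ordered by Scd1, 36 cells held 0.3 to 1% Scd1, 37 held 1 to 3% and 1 held more. These bands are ranges of a gene used by the rule, and their median depths differed at 21898.5, 38222 and 48084 UMIs. Spearman's correlation of the Scd1 share with total UMIs over the 74 cells was 0.58, so genes and Scd1 share the depth of each cell. Among the genes followed, high Spearman correlations with Scd1 over cells were those of Paqr7 (0.82), Fa2h (0.79) and Slc27a4, a fatty acid transporter (0.78). Apoe (-0.55) and Akr1c18 (-0.49) ran the other way. Ribosomal protein genes took 20.5%, 16.2% and 11.0% of UMIs from the lowest band to the highest.

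A sharper division followed Elovl4, the elongase of very long-chain fatty acids. Elovl4 had at least 0.1% of UMIs in the 1 cell of the 2-week knockout, in 14 of 43 cells of the 3-week knockout (32.6%, 19.1 to 48.5%) and in 7 of 30 control cells (23.3%, 9.93 to 42.3%). Few cells lay near that limit: the nearest shares on its sides were 0.473% and 0.0855% in the 3-week knockout and 0.115% and 0.0538% in the control. The division was drawn after the values were seen, so everything that follows it describes these cells. In both the 3-week knockout and the control, Elovl4-high cells were past 2-fold higher for 5.69% of 1793 genes and past 2-fold lower for 1.78%.

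Ly6g6c, Awat1, Scd3, Cyp4f39 and Sbsn were among the genes higher in Elovl4-high cells. Ly6g6c, a small surface protein of the Ly6 family, had a median of 1805 CPM (82.3 to 6177) in 14 Elovl4-high cells of the 3-week knockout, against a median of 0 CPM (0 to 1646) in 29 Elovl4-low cells. In the control its median was 1132 CPM (0 to 6362) in 7 high cells, against 0 CPM (0 to 155) in 23 low cells. That high-cell median is the value of 1 cell with only 883 UMIs in all, so it is coarse. The ranges overlapped in both libraries. Awat1, which joins fatty acids to fatty alcohols to form wax esters, read 348 CPM in high and 18.02 CPM in low cells of the 3-week knockout, and 358 and 1.72 CPM in the control. Scd3, a desaturase of mouse skin, read 414 and 8.41 CPM in the 3-week knockout and 766 and 34.3 CPM in the control, with its UMIs in 5 of 14 and 6 of 7 high cells. Cyp4f39, which hydroxylates very long fatty acids, read 211 and 1.20 CPM in the 3-week knockout and 223 and 3.43 CPM in the control. Sbsn, suprabasin of the upper epidermis, read 2598 and 235 CPM and 2340 and 130 CPM in the same order. Other genes of the suprabasal marker list did not share this: Krt10 read 381 and 232 CPM in the 3-week knockout and 21.0 and 165 CPM in the control, and Krtdap 279 and 237 CPM and 21.0 and 68.6 CPM. Some genes outside that list did. Rdh12 read 161 and 10.8 CPM in the 3-week knockout and 50.5 and 3.43 CPM in the control, and Ephx3 139 and 2.40 CPM and 80.0 and 1.72 CPM.

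Akr1c18, Apoe, Gnl3, Ddx21 and Phgdh were among the genes higher in Elovl4-low cells. Akr1c18 had a median of 20.8 CPM (0 to 677) in Elovl4-high cells of the 3-week knockout, against 1331 CPM (0 to 5209) in low cells. In the control the medians were 26.2 CPM (0 to 491) in high and 373 CPM (0 to 4199) in low cells. Apoe had medians of 2585 CPM in high and 14920 CPM in low cells of the 3-week knockout, and of 3720 and 10592 CPM in the control. The control's high-cell median of Apoe is the value of a cell with only 1344 UMIs in all. Other genes of like function ran differently: Hsd3b6, a steroid dehydrogenase, read 257 CPM in high and 88.9 CPM in low cells of the 3-week knockout and 114 and 65.2 CPM in the control, and Apoc1, a lipid carrier, 2178 and 2941 CPM and 2193 and 2093 CPM. The nucleolar gene Gnl3 read 36.2 CPM in high and 97.3 CPM in low cells of the 3-week knockout and 42.1 and 189 CPM in the control, and Ddx21, an RNA helicase, read 39.4 and 100.9 CPM and 46.3 and 124 CPM. Phgdh, the first enzyme of serine synthesis, read 72.5 and 226 CPM in the 3-week knockout and 75.8 and 182 CPM in the control. Mgst1, Krt79 and Elovl6 differed by less than 1.5-fold in both libraries. Scd1 was higher in Elovl4-high cells, with median shares of 2.04% against 0.841% in the 3-week knockout and 1.59% against 0.768% in the control, and so were their median depths, at 41101 against 29847 UMIs and 38222 against 26422 UMIs.

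**Figure D2:**
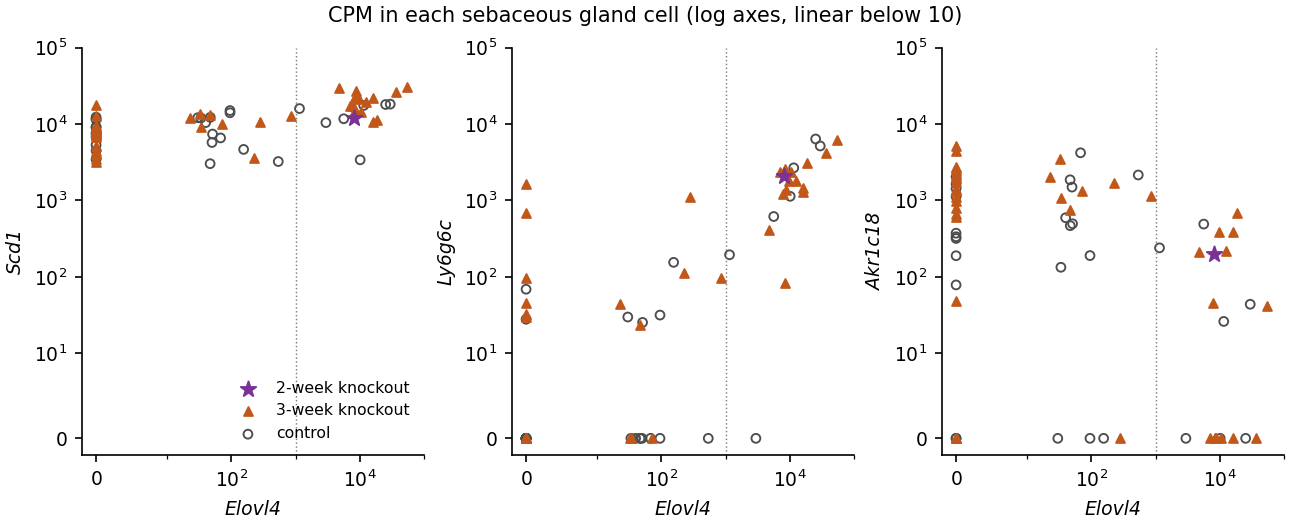
Scd1, Ly6g6c and Akr1c18 against Elovl4 in each sebaceous gland cell, in CPM on log axes that turn linear below 10, with the Elovl4 limit of 0.1% dotted. Cells right of the line had medians of 1805 (3-week knockout) and 1132 (control) for Ly6g6c and of 20.8 and 26.2 for Akr1c18. The control median of Ly6g6c is the value of a cell with only 883 UMIs in all.

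The 1 cell of the 2-week knockout was Elovl4-high and carried further epidermal transcripts. It read 8029 CPM of Elovl4, 2091 CPM of Ly6g6c, 196 CPM of Akr1c18 and 12060 CPM of Scd1. It also read 9484 CPM of Lor (loricrin), 2645 CPM of Calm4 and 2403 CPM of Sbsn, and its suprabasal marker list summed to 14983 CPM. Gland cells of the 3-week knockout and control summed to 2065 and 1046 CPM over that list, and other epithelial barcodes of the 2-week library to 9961 CPM. Only 32 passed barcodes of its library had more UMIs. Whether keratinocyte RNA in this droplet has a part in these values was not tested, and no gene comparison with the control was made on 1 cell.

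The 5' flanks of 4 genes are shown because they mark the ends of these patterns: Soat1 was present in every gland cell, Msmo1 differed most between the 3-week knockout and control among cholesterol genes, and Elovl4 and Akr1c18 lay on opposite sides of the division within the gland. Each is the 250 bases before the start of the gene in RefSeq (GRCm38.p6), 5' to 3' on the gene's own strand, with motif matches in capitals. Soat1 is at chr1:156474329-156474578, Msmo1 at chr8:64733579-64733828, Elovl4 at chr9:83806306-83806555 and Akr1c18 at chr13:4150647-4150896, all on the minus strand.
Soat1: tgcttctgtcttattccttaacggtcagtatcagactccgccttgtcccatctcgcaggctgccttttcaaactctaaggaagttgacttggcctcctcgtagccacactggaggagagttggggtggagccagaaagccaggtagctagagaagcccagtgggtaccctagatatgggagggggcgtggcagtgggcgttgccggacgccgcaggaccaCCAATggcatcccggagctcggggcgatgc
Msmo1: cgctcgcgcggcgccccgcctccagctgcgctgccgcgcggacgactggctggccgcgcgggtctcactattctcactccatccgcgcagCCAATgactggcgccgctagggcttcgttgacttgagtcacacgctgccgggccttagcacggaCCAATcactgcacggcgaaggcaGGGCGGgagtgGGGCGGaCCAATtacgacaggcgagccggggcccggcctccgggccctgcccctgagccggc
Elovl4: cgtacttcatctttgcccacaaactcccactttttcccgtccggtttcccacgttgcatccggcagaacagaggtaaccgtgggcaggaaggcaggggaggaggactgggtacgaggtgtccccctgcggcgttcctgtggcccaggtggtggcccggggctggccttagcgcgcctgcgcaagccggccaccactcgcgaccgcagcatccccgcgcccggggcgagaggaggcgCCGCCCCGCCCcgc
Akr1c18: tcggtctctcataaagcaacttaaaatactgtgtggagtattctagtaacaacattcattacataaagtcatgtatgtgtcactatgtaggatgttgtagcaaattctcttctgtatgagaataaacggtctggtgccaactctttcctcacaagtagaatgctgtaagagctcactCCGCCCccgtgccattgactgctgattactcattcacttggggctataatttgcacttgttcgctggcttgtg
The motifs searched on both strands were a sterol response element (TCACNCCAC), the CCAAT box (CCAAT) and a GC box (GGGCGG). Msmo1 held 3 CCAAT boxes and 2 GC boxes, Soat1 held 1 CCAAT box, Elovl4 held 2 GC boxes that overlap on the opposite strand, and Akr1c18 held 1 GC box. Of 32851 windows of the same length, 33.8% held a CCAAT box, 32.7% a GC box and 1.05% the sterol element. The letters of the sterol element were not in these 4 windows.

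Between the 3-week knockout and the control, few genes differed by much in gland cells. Of 1503 genes with at least 50 UMIs over both libraries and 100 CPM in 1 of them, 2.13% were past 2-fold higher and 2.4% past 2-fold lower in the 3-week knockout. At 1.5-fold the shares were 5.72% higher and 8.25% lower. In other epithelial barcodes, 0.865% and 1.46% of the same genes passed 2-fold higher and lower, and 3.66% and 6.19% passed 1.5-fold. The genes were chosen by their level in gland cells, whose sums rest on 43 and 30 cells, against 6858 and 2893 other barcodes. The shares of gland cells and other epithelium are therefore not on the same footing. The median log2 ratio over all ranked genes was -0.03 in gland cells and 0.04 in other epithelium. Under at least 1 of 14 alternatives, the fold was no longer passed for 19 of the 53 genes followed: Agpat3, Awat1, Ccn1, Cd200, Cebpb, Ctsd, Dgat2, Egr1, Eif3j1, Hsd3b6, Ier3, Krt17, Mvk, Plet1, Plin2, Reep5, Sbsn, Sox9 and Zfp36. In summed values a change in the make-up of the cells and a change within them look alike, so values within Elovl4-high and Elovl4-low cells are given for the main lipid genes.

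Among lipid genes, few members of each list were past 1.5-fold. Msmo1 read 1773 CPM (2601 UMIs, 40 of 43 cells) in the 3-week knockout, against 652 CPM (535 UMIs, 26 of 30 cells) in the control. That is a 2.72-fold difference (2.48 to 2.99), while the same ratio in other epithelium was 0.902-fold. On the log2 scale the difference was 1.25 within Elovl4-high cells and 1.08 within Elovl4-low cells. Of the 17 ranked genes of the cholesterol list, Msmo1 and Mvk, mevalonate kinase (1.55-fold), were past 1.5-fold higher and none was lower by that much. The list's median log2 ratio was 0.16.

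In the sum of gland cells, Elovl6 and Elovl4, of the elongases, were higher in the 3-week knockout. Elovl6 read 6491 CPM in the 3-week knockout, against 3762 CPM in the control (1.73-fold, 1.66 to 1.80), with UMIs in every gland cell of both libraries, and other epithelium stood at 1.20-fold. Its log2 difference was 1.10 within Elovl4-high cells and 0.61 within Elovl4-low cells. Elovl4 read 6871 CPM in the 3-week knockout, against 3052 CPM in the control (2.25-fold, 2.15 to 2.35), and 1.73-fold in other epithelium. These sums rest on few cells. The median Elovl4 share of a cell was 0.0022% in the 3-week knockout and 0.0047% in the control, and the highest were 5.39% and 2.998%. The log2 difference of Elovl4 was 1.17 in the sum of all cells, 0.59 within Elovl4-high cells, 0.90 within Elovl4-low cells and 0.81 with cells weighed equally. The low-cell value rests on 57 UMIs in the 3-week knockout and 20 in the control. A low cell of 51473 UMIs in the 3-week knockout read 855 CPM, against 68.5 CPM over all low cells there. Elovl4 itself drew this division, so its values within the parts do not separate make-up from change within cells. Of 5 ranked elongation genes Elovl6 and Elovl4 were past 1.5-fold, none was lower by that much, and the median log2 ratio was 0.52. None of 10 ranked fatty acid synthesis genes was past 1.5-fold either way; Fasn stood at 1.24-fold and Acly, ATP citrate lyase, at 1.35-fold.

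Of 11 ranked genes of the triglyceride, wax and sterol ester list, Agpat3 and Awat1 were past 1.5-fold higher and Dgat2 and Acsl3 past it lower. Agpat3, an acyltransferase of phospholipid and triglyceride synthesis, read 265 CPM in the 3-week knockout, against 108 CPM in the control (2.44-fold, 1.94 to 3.11). Its log2 difference was 1.31 within Elovl4-high cells and 0.066 within Elovl4-low cells. Acsl3, which activates fatty acids for lipid droplets, read 40.9 CPM in the 3-week knockout, against 160 CPM in the control (3.903-fold lower, 2.85 to 5.39), and other epithelium was lower too at 0.546-fold. Dgat2, which completes triglyceride, stood at 0.629-fold in gland cells and 1.71-fold in other epithelium. Soat1 was level at 1.05-fold (0.998 to 1.10).

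Of 8 ranked droplet and transport genes, Hilpda and Plin2 were past 1.5-fold lower and none higher. Hilpda, a lipase inhibitor of lipid droplets that responds to low oxygen, read 125 CPM in the 3-week knockout, against 308 CPM in the control (2.46-fold lower). Plin2, the droplet coat protein, read 1753 CPM against 2637 CPM (1.504-fold lower). Both were also lower in other epithelium, at 0.577-fold and 0.604-fold. Fabp5 stood at 1.35-fold in gland cells and 1.36-fold in other epithelium.

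Other named genes fell into small groups. Vav3, a guanine nucleotide exchange factor, read 91.3 CPM in the 3-week knockout, against 262 CPM in the control (2.87-fold lower, 2.30 to 3.59), while other epithelium stood at 0.910-fold. Eppk1, the keratin-binding epiplakin, read 57.3 CPM against 199 CPM (3.47-fold lower), with 0.949-fold in other epithelium; its log2 ratio was -1.71 in the sum and -1.08 with cells weighed equally. Tmem164 read 254 CPM in the 3-week knockout, against 76.8 CPM in the control (3.30-fold higher, 2.52 to 4.39), with 1.31-fold in other epithelium. Noct, a circadian gene, read 46.4 CPM against 158 CPM (3.42-fold lower). Gadd45a, a growth arrest gene, stood 3.23-fold lower and Elf1, an ETS factor, 3.06-fold lower. Noct, Gadd45a and Elf1 were lower in other epithelium as well, at 0.576-fold, 0.476-fold and 0.561-fold.

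Some of the largest ratios were also seen in the rest of the epithelium. Wdr89 was 9.33-fold lower in gland cells of the 3-week knockout, at 77.0 CPM against 719 CPM in the control, and stood at 0.112-fold in other epithelium. Reep5, a membrane-shaping protein of the endoplasmic reticulum, was 2.17-fold higher and stood at 2.26-fold in other epithelium. Sap18, a corepressor subunit, was 4.07-fold higher and stood at 2.23-fold there. Gm42418, a gene model that overlaps ribosomal RNA, took 1.14% of gland cell UMIs in the 3-week knockout and 3.53% in the control, against 1.36% and 2.90% in other epithelium.

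Few regulators and hormone genes were past 1.5-fold. Of 9 ranked sebocyte regulators, Cebpb was past 1.5-fold higher (811 CPM in the 3-week knockout, against 519 CPM in the control) and Sox9, a stem cell factor, past it lower (150 CPM against 234 CPM). The log2 ratio of Sox9 was -0.63 in gland cells and -0.87 in other epithelium, and that of Cebpb was 0.64 and -0.0048. Pparg stood at 1.38-fold (1.02 to 1.89). Hsd3b6, a steroid dehydrogenase, was past 1.5-fold higher at 162 CPM against 79.2 CPM, the 1 of 5 ranked hormone genes that was. Akr1c18 read 950 CPM in the 3-week knockout, against 569 CPM in the control (1.67-fold), with UMIs in 32 of 43 and 22 of 30 cells, and was lower in the 3-week knockout within Elovl4-high cells (log2 -0.44). Of 9 ranked redox genes, Gclc and Gclm, the subunits of glutamate-cysteine ligase, and Mgst2 were past 1.5-fold lower and none higher. Their log2 ratios were -0.72, -0.79 and -0.71 in gland cells and -0.43, -0.59 and 0.17 in other epithelium, so Gclc and Gclm were lower there too.

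The remaining lists held few such genes. Of 8 ranked lysosome and holocrine breakdown genes, Ctsd, cathepsin D, was past 1.5-fold higher (1.62-fold) and Gabarapl1, an autophagy gene, past it lower (1.86-fold). Of 14 oxidative phosphorylation genes, Atp5k, an ATP synthase subunit, was past it at 1.84-fold, with 2.04-fold in other epithelium. Of 9 heat shock genes, Hspb1 was past it higher (2.36-fold) and Hsp90aa1 lower (1.86-fold). Hspb1 read 193 CPM in gland cells of the 3-week knockout, against 81.7 CPM in the control, but 1573 CPM against 403 CPM in barcodes with at least 2 UMIs of the leukocyte gene Ptprc, and the part of free RNA was not tested. Its log2 ratio was 1.19 over all gland cells and 1.904 over those with at least 0.5% Scd1. Of 6 progenitor and basal genes, Krt5 and Krt15 were past it higher and Itga6, an integrin subunit (2.25-fold), and Dst, dystonin (2.42-fold), lower. Krt15 read 302 CPM in gland cells of the 3-week knockout, against 95.1 CPM in the control. In the Ptprc barcodes it read 875 and 523 CPM, above the gland cells in both libraries. These barcodes were shallower than gland cells, so CPM does not compare free RNA per droplet. The part of free RNA was not tested, and no difference is read from Krt15. None of 6 peroxisome genes and none of 3 interferon and MHC class I genes was past 1.5-fold in either direction.

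Piezo1 itself was too rare in gland cells to compare. It had 1 UMI in the 2-week knockout, 20 UMIs in 15 of 43 cells of the 3-week knockout and 13 UMIs in 11 of 30 control cells, or 11.6, 13.6 and 15.8 CPM. The ratio of the 3-week knockout to the control was 0.861 with an interval of 0.407 to 1.88, so a reduction was not detectable at this depth. Of the 2 ranked YAP and mechanical response genes, Thbs1, thrombospondin 1, read 78.4 CPM in the 3-week knockout, against 401 CPM in the control (5.11-fold lower), and Ccn1 54.5 CPM against 130 CPM (2.39-fold lower). Thbs1 had UMIs in 19 of 43 and 13 of 30 cells, and 1 cell held 49.6% of its UMIs in the 3-week knockout and 22.5% in the control. With cells weighed equally the log2 ratio was -1.36 for Thbs1 and -0.43 for Ccn1, which then missed 1.5-fold, against -2.28 and -1.19 in the sum. With Scd1 of at least 0.5% it was -3.18 for Thbs1. Both were also lower in other epithelium, at 0.510-fold and 0.643-fold.

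Suprabasal keratinocyte genes were higher in gland cells of the 3-week knockout, and Krtdap, Krt10 and Krt5 were also higher in cells that should lack them. All 5 ranked suprabasal markers were past 1.5-fold higher, with Krtdap at 255 CPM in the 3-week knockout, against 54.8 CPM in the control, and Krt10 at 297 CPM against 123 CPM. The log2 ratio of Krt10 was 1.24 in the sum and 2.73 with cells weighed equally. Krt5 read 273 CPM in 37 of 43 cells, against 62.2 CPM in 12 of 30 cells, whereas Krt14 read 2590 CPM against 2977 CPM. Barcodes with at least 2 UMIs of Ptprc, the pan-leukocyte gene, numbered 515 in the 3-week knockout and 365 in the control, with median depths of 5251 and 6300 UMIs. In them Krtdap read 3062 CPM in the 3-week knockout, against 199 CPM in the control, Krt10 2989 CPM against 561 CPM, and Krt5 1104 CPM against 474 CPM. Krtdap, Krt10 and Krt5, like Krt15 above, were thus lower in the sum of gland cells than in these leukocyte barcodes in both libraries. Single gland cells of the 3-week knockout read up to 2479 CPM of Krt5. Gland cells were deeper, with medians of 33813 and 26526.5 UMIs, so CPM does not compare free RNA per droplet. The part of free RNA was not tested, and no difference between the libraries is read from these genes. Sbsn was lower in the 3-week knockout alone, with 1258 CPM in gland cells and 1840 CPM in leukocyte barcodes, against 770 and 210 CPM in the control. Krt14 was lower in neither, with 2590 and 1821 CPM in the 3-week knockout and 2977 and 688 CPM in the control. Scd1 in the leukocyte barcodes was 20.7, 86.0 and 23.1 CPM in the 2-week knockout, 3-week knockout and control, far under the limit that chose gland cells.

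Of 13 ranked immediate early genes, 4 were past 1.5-fold higher and 1, Ier3, lower, with a log2 ratio of -1.03 in the sum and -0.20 with cells weighed equally. Fos, a subunit of AP-1, read 954 CPM in 42 of 43 cells of the 3-week knockout, against 230 CPM in 21 of 30 control cells (4.14-fold, 3.55 to 4.85), with 1.87-fold in other epithelium. In the control, 1 cell held 59.3% of its UMIs. Dusp1, a MAP kinase phosphatase, read 127 CPM against 35.3 CPM, and Zfp36, which destabilises messenger RNA, 256 CPM against 123 CPM. Leukocyte barcodes read 2592 CPM of Fos in the 3-week knockout and 1226 CPM in the control, and the part of free RNA in the gland values was not tested.

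**Figure D3:**
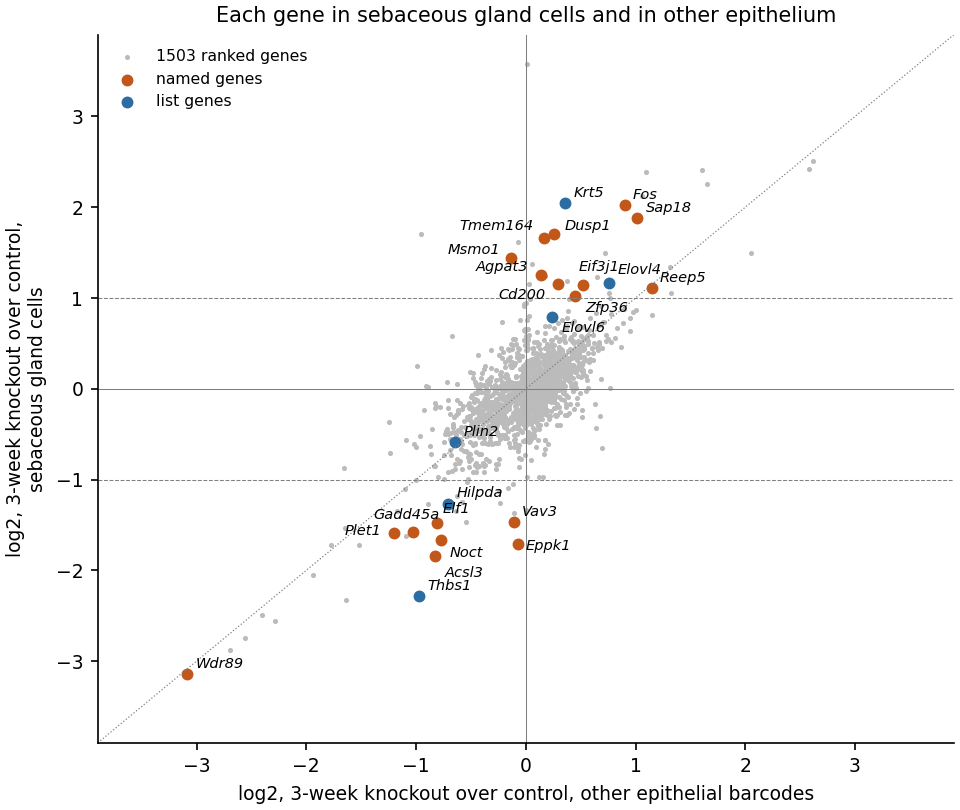
Log2 ratio of the 3-week knockout over the control in sebaceous gland cells (vertical) and in other epithelial barcodes (horizontal) for 1503 ranked genes, with 5 CPM added to both sides. Wdr89 and Reep5 lie near the diagonal, whereas Msmo1 and Tmem164 lie high and Vav3 and Eppk1 low at a horizontal value near 0.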

How the data were processed

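The deposited matrices hold counts of UMIs per gene and barcode, made with Cell Ranger 6.1.2 and mm10 per the submitters' processing notes, from 10x 3' v3.1 libraries per the labels. Whether introns were counted is not given in the sources used here. The members and lists were chosen with earlier results of these data known.

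From these counts, UMIs of the gland cells of a library were summed over 32285 genes and scaled to counts per 1000000 (CPM). Ratios carry exact conditional 95% intervals and shares exact Clopper-Pearson intervals; both cover counting error only. Before log2 ratios were taken, 5 CPM was added to each value. With 1 library per group no test was possible and none was made. A gene was past 1.5-fold or 2-fold when this log2 ratio reached that fold. Gene lists numbered 21, plus 13 marker lists, and are named where their values are given; cell cycle and circadian lists had no ranked gene. Named genes were the list members, the 20 leading genes over other epithelium with at least 100 CPM in every library, and per side the 10 largest ratios of at least 2-fold, present in at least 10% of cells of the library where the gene was higher and with no cell there holding over 20% of its UMIs; ribosomal, mitochondrial and unnamed genes were left out. Not every such gene is named in the text. The planned gene comparison of the 2-week knockout with the control was not run because it had 1 cell. Cells were not filtered for doublets; Scrublet in scanpy 1.11.5 was an alternative. Python 3.11.15, numpy 2.4.6, scipy 1.17.1 and pandas 2.3.3 were used, and the ratio code was tested on simulated data. Promoter windows came from a RefSeq table. Some genes are not reported here.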

Additional observations from a re-analysis of the deposited data

How the results depend on the processing

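No paired analysis was possible because each group has 1 library. The share of gland cells in the 2-week knockout lay between 0.0117 and 0.0684 times that of the control under every alternative but the Mgst1 limit alone, which was chosen after the data were seen and gave 0.127. For the 3-week knockout it lay between 0.607 and 0.895. Both upper ends came from definitions that were also not set in advance. These were epithelial barcodes with at least 2 Pparg UMIs (0.0684) and barcodes of at least 10000 UMIs (0.895). Among alternatives set in advance, the highest ratio for the 2-week knockout was 0.0657, with Scd1 of at least 0.2%. For the 3-week knockout it was 0.812, with a Pparg or Fasn UMI required. The numbers of genes past 1.5-fold higher and lower and past 2-fold higher and lower in the 3-week knockout were 86, 124, 32 and 36. With a floor of 50 UMIs and 50 CPM they were 158, 256, 50 and 67; with 100 UMIs and 200 CPM 52, 47, 21 and 16; with no floor 1115, 1141, 255 and 243; in Elovl4-high cells alone, an alternative added after seeing the data, 136, 198, 52 and 61. With cells weighed equally, 142 were past 1.5-fold higher, 212 past 1.5-fold lower and 57 past 2-fold lower. The cause was not tested, beyond the fewer or more genes that a floor admits. Of 53 genes followed under 16 alternatives, 50 never changed direction, and 34 passed their fold under each of 14 alternatives, the Elovl4-high and Elovl4-low cells alone left aside. Krt17 turned to a log2 ratio of 1.13 with cells weighed equally and 0.39 in Elovl4-high cells alone, where Akr1c18 (-0.44) and Awat1 (-0.038) turned too. With cells weighed equally 11 genes no longer passed their fold. The number of cells, 43 against 30, and their uneven depth limit every gene comparison.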

Other observations

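Cyp2g1, a cytochrome P450, was chosen after its values were seen, because it had the largest log2 ratio of any ranked gene in gland cells, 3.58 for the 3-week knockout over the control. It had UMIs in 14 of 43 cells of the 3-week knockout and in 2 of 30 control cells, and 1 cell held 42.8% of its UMIs in the 3-week knockout and 75.0% in the control. In other epithelium the log2 ratio was 0.01.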
